A study of Mus musculus with 22 samples.

Results

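The genes described here were 3 fibroblast growth factor homologous factors, Fgf14, Fgf12 and Fgf11, and 4 pore-forming subunits of the neuronal voltage-gated sodium channel, Scn1a, Scn2a, Scn3a and Scn8a. They were 7 of the 55450 genes in the GENCODE annotation of mm10 (release M 21), and every genomic bin that overlaps 1 of them was taken, with 500 kb on either side as flanks. These bins were 27 of the 26327 bins of 100 kb in which 5mC was given and 8 of the 2641 bins of 1 Mb in which 5hmC was given, and all of them had values in every library. The genes were chosen by name and function with the 5mC and 5hmC levels of these same libraries already seen. Their levels are therefore given as a description, and no p-value is printed for them. Calls from a test over all bins are counted below, also only as a description.

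The homologous factors are intracellular proteins. Unlike the secreted fibroblast growth factors they bind no receptor on the cell surface, but attach to the intracellular C-terminal tail of sodium channel alpha subunits and change how the channels inactivate and where they gather on the axon. Scn1a, Scn2a, Scn3a and Scn8a encode Nav1.1, Nav1.2, Nav1.3 and Nav1.6, which carry the rising phase of the action potential. Nav1.1 is known mainly from inhibitory neurons, Nav1.2 and Nav1.6 from the axon initial segment and axon, and Nav1.3 from the embryonic brain, and loss of Fgf14 in people and mice causes cerebellar ataxia. In neurons, 5hmC, the product of oxidation of 5mC by TET enzymes, is plentiful in the bodies of expressed genes, where 5mC is correspondingly low.

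The samples were 16 libraries from the cortex, the olfactory bulb and the cerebellum of female C57BL/6 mice at 8 weeks of age, with no treatment named and replicates from independent mice. TAB-seq, which reads only 5hmC as C, had 3 libraries per tissue. OxBS-seq, which reads only 5mC as C, had 3 cortex libraries, 2 from the olfactory bulb and 2 from the cerebellum. Cortex was the cerebral cortex without the hippocampus, and the other tissues were taken whole, so fewer cells of a type and a lower level per cell cannot be told apart. A level is the fraction of modified cytosine in a bin, from 0 to 1, as deposited by the authors. No read counts or coverage came with the levels, so the depth is unknown and the only error is the SD between libraries.

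The whole libraries differed between tissues before any gene was considered. The median 5mC level over bins was 0.697 ± 0.0152 (SD, n = 3) in cortex, 0.729 ± 0.00154 (n = 2) in olfactory bulb and 0.753 ± 0.0110 (n = 2) in cerebellum. The median 5hmC level went the other way, from 0.175 ± 0.0102 (n = 3) in cortex and 0.152 ± 0.00478 (n = 3) in olfactory bulb to 0.0931 ± 0.00199 (n = 3) in cerebellum. The third cortex oxBS-seq library had a median of 0.679, below 0.705 and 0.706 in the others. Of 4 marker genes per tissue, 3 for cortex, 3 for olfactory bulb and 2 for cerebellum had their lowest 5mC in the tissue they mark. The highest 5hmC was in the marked tissue for 4, 3 and 1 of them, and after subtraction of each library's median both counts were 3 of 4 in every tissue.

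Start sites of Fgf14, Fgf12, Scn2a and Scn8a are shown first because the bins below are described by the starts they hold. RefSeq promoters were found for 6 of the 7 genes, from 250 bases before to 50 after each start, on the GRCm38.p6 assembly and on the strand of the gene. CpG sites, the positions both assays read, are in capitals. Over all 32851 promoters of this length the median was 7 CpG sites. No window was found for the outer start of Fgf14, from which distances along that gene are counted. The Fgf14 window shown is that of the shorter transcript, which begins deep inside the gene, and it holds 12 CpG sites. Of all promoters, 39.6% hold at least as many. The 3 Fgf12 windows shown are ordered from the outermost start inwards and hold 18, 34 and 22 CpG sites. A further Fgf12 window next to the middle start, chr16:28564446-28564745, holds 29 CpG sites and is not printed. Scn2a has an outer start with 3 CpG sites and an inner start with 9, and Scn8a has an outer start with 38 CpG sites and an inner start with 12.
Fgf14 inner start, chr14:124192497-124192796, minus strand: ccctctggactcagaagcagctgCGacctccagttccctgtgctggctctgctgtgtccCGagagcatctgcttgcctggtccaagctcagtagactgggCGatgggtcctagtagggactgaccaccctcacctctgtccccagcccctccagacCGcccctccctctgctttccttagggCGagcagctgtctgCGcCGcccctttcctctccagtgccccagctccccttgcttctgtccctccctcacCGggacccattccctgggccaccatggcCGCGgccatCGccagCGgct
Fgf12 outer start, chr16:28753194-28753493, minus strand: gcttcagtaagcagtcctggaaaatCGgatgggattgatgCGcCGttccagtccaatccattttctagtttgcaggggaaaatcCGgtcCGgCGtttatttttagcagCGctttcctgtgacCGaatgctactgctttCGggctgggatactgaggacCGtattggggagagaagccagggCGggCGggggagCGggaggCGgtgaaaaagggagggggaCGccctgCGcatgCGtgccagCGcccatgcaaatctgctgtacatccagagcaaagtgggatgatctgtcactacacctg
Fgf12 middle start, chr16:28564902-28565201, minus strand: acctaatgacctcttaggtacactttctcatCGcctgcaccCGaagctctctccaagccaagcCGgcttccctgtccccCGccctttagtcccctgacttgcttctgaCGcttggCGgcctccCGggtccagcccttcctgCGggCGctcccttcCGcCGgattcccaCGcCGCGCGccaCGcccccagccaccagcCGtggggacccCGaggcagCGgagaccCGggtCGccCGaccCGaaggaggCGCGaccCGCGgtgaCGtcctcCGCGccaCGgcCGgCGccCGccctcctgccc
Fgf12 inner start, chr16:28446026-28446325, minus strand: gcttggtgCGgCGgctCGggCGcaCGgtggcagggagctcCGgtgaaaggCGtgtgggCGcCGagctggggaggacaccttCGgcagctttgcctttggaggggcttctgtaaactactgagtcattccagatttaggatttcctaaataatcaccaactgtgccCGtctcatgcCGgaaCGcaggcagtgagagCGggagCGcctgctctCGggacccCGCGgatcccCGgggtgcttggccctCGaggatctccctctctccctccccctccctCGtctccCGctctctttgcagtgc
Scn2a outer start, chr2:65620519-65620818, plus strand: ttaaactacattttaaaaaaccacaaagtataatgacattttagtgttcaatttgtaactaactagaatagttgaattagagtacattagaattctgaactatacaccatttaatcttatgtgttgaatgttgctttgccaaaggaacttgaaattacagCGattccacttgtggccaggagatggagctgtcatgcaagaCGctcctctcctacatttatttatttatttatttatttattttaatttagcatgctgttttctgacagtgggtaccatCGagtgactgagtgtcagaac
Scn2a inner start, chr2:65668436-65668735, plus strand: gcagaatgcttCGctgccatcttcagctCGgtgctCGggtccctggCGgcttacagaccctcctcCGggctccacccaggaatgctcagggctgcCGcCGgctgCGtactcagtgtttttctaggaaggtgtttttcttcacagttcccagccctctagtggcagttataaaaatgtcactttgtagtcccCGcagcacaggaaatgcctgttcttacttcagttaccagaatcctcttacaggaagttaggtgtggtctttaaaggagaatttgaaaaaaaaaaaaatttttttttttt
Scn8a outer start, chr15:100870395-100870694, plus strand: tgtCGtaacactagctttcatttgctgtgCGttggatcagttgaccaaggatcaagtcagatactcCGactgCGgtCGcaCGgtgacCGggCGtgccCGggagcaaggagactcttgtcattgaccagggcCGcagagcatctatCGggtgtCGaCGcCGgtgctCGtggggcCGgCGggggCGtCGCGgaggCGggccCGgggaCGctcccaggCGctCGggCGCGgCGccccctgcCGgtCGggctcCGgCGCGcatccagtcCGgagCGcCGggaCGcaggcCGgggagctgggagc
Scn8a inner start, chr15:100936021-100936320, plus strand: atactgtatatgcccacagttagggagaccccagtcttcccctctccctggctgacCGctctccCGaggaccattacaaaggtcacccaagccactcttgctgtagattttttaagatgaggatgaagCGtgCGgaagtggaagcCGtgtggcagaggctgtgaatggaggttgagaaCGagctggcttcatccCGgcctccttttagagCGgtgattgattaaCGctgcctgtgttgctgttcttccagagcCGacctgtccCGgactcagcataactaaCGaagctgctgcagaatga

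These windows differ widely in CpG content. The outer Scn8a start and the middle Fgf12 start are dense, with 4.95% and 7.73% of all promoters holding at least as many CpG sites, whereas 76.7% hold at least as many as the outer Scn2a start. The levels below are means over 100 kb or 1 Mb, so they do not resolve the methylation of any of these windows.

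Across the 27 bins of 100 kb, 5mC in olfactory bulb was called higher than in cortex in 16 bins, against 37.6% of all bins tested, and lower in 4, against 2.18% of all bins (limma, Benjamini-Hochberg adjusted p under 0.05). In cerebellum against cortex 15 member bins were called higher (71.9% of all bins) and 4 lower (4.44%). In cerebellum against olfactory bulb 7 were called higher (35.3%) and 8 lower (7.69%). The median difference over the member bins was 0.0554 for olfactory bulb minus cortex, where that of all bins was 0.0307. For cerebellum minus cortex it was 0.0452 against 0.0585, and for cerebellum minus olfactory bulb -0.00221 against 0.0248. The genes were chosen with these levels known, so nothing is read from the counts. Without olfactory bulb replicate 1 the count higher than in cortex was 9, and over all 25664 bins it went from 9637 to 3034. Without olfactory bulb replicate 2 the count lower than in cortex was 2, and over all bins it went from 560 to 232.

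With each library's median subtracted first, the split of the calls changed. The member bins were then 10 higher and 6 lower in olfactory bulb against cortex, 6 higher and 11 lower in cerebellum against cortex, and 6 higher and 12 lower in cerebellum against olfactory bulb. Over all bins the same scaling gave 2261 higher and 2541 lower, 6606 higher and 6235 lower, and 5671 higher and 5459 lower. The 4 calls of lower 5mC in cerebellum than in cortex without that scaling were 3 bins at the 5′ end of Fgf14 and the 5′ bin of Scn2a.

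Of the 8 bins of 1 Mb, 0 were called higher in 5hmC in olfactory bulb than in cortex (3.25% of all bins) and 4 lower (67.7%) by limma, and the count of 0 was also 0 at an unadjusted p under 0.05. In cerebellum against cortex 1 was called higher (0.426%) and 7 lower (97.6%), and in cerebellum against olfactory bulb 1 was called higher (1.2%) and 6 lower (91.8%). The 1 bin that was higher in cerebellum in both comparisons was the bin with most of Fgf14. With library medians subtracted, 5 member bins were called higher and 0 lower in olfactory bulb against cortex, 7 higher and 1 lower in cerebellum against cortex, and 5 higher and 2 lower in cerebellum against olfactory bulb. Under that scaling 935, 1298 and 1314 of the 2581 bins tested were higher in the same 3 comparisons and 853, 1035 and 1008 lower.

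**Figure D1:**
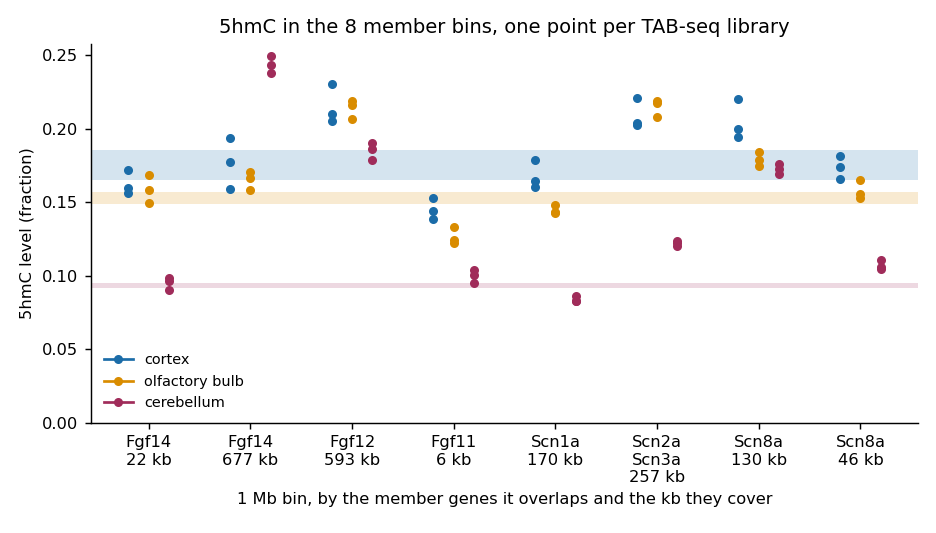
5hmC level (fraction, y axis, from 0) in the 8 bins of 1 Mb that overlap a member gene, with the kb of the bin the named genes cover; points are single TAB-seq libraries and bands span the library medians of each tissue. In the bin with 677 kb of Fgf14 the 3 cerebellum libraries lie between 0.238 and 0.250, above every cortex and olfactory bulb library, whereas in the other bins the cerebellum libraries are below all cortex libraries.

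Fgf14 (ENSMUSG00000025551.13) is a gene of 699.2 kb on the minus strand at chr14:123977907-124677127, near the distal end of chromosome 14. Its long transcript, Fgf14-202, spans the whole gene, and the shorter one, Fgf14-201, begins 484.2 kb further in, at position 124192902. The bin chr14:124000001-125000000 holds 677.1 kb of the gene. In this bin 5hmC was 0.1775, 0.1937 and 0.1589 in the cortex libraries, 0.1586, 0.1704 and 0.1664 in those of olfactory bulb and 0.2495, 0.2383 and 0.2437 in those of cerebellum. All 3 cerebellum libraries were above all 6 others, while cortex and olfactory bulb overlapped. The mean rose by 0.0671 from cortex and by 0.0787 from olfactory bulb, and both differences ranked 1 of 2581 bins. In level the bin ranked 1222 from the top in cortex, 948 in the olfactory bulb and 4 in cerebellum.

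Relative to the median of its own library, 5hmC of this bin was 1.01 ± 0.0438 (SD, n = 3) in cortex, 1.09 ± 0.0239 in the olfactory bulb and 2.62 ± 0.0811 in cerebellum. The neighbouring bin, chr14:123000001-124000000, holds only the last 22.09 kb of the gene. There 5hmC was 0.163 ± 0.00835 in cortex, 0.159 ± 0.00958 in the olfactory bulb and 0.0953 ± 0.00445 in cerebellum (n = 3 each), with cerebellum lowest as in the genome at large. Fgf14 thus had both a bin in which cerebellum was highest and a bin in which it was lowest, and the former was the one that the gene fills.

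The 5mC of the same stretch was resolved in 8 bins of 100 kb. The 5′ bin, chr14:124600001-124700000, had 5mC of 0.5758, 0.5638 and 0.5824 in cortex, 0.6721 and 0.6543 in olfactory bulb and 0.478 and 0.5107 in cerebellum. The next bin along transcription, chr14:124500001-124600000, had 0.6208, 0.6346 and 0.62 in cortex, 0.6945 and 0.7284 in olfactory bulb and 0.5492 and 0.5416 in cerebellum. The bin at the 3′ end, chr14:123900001-124000000, had 0.7056, 0.7091 and 0.6773 in cortex, 0.7567 and 0.7488 in olfactory bulb and 0.7511 and 0.75 in cerebellum. At the 5′ end the tissues were in the order cerebellum, cortex, olfactory bulb with no overlap, and at the 3′ end cortex was lowest while the other tissues overlapped.

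The difference cerebellum minus cortex changed step by step along the gene. From the 3′ bin to the 5′ bin it was 0.0532, 0.0178, 0.0115, -0.00875, -0.0228, -0.0395, -0.0798 and -0.0797. The libraries of the tissues did not overlap in the first 2 and the last 3 of these bins. Of these, the first bin was called higher (71.9% of all bins) and the last 3 lower (4.44%). Olfactory bulb minus cortex lay between 0.0443 and 0.0892, with no overlap in any of the 8 bins, and 7 of them were called higher (37.6%). Cerebellum minus olfactory bulb went from -0.00221 at the 3′ end to -0.169 at the 5′ end. Outside the gene the order was another: in the upstream flank bin next to the start, cerebellum had 0.812 ± 0.00971 (n = 2), cortex 0.763 ± 0.0202 (n = 3) and olfactory bulb 0.811 ± 0.0121 (n = 2).

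**Figure D2:**
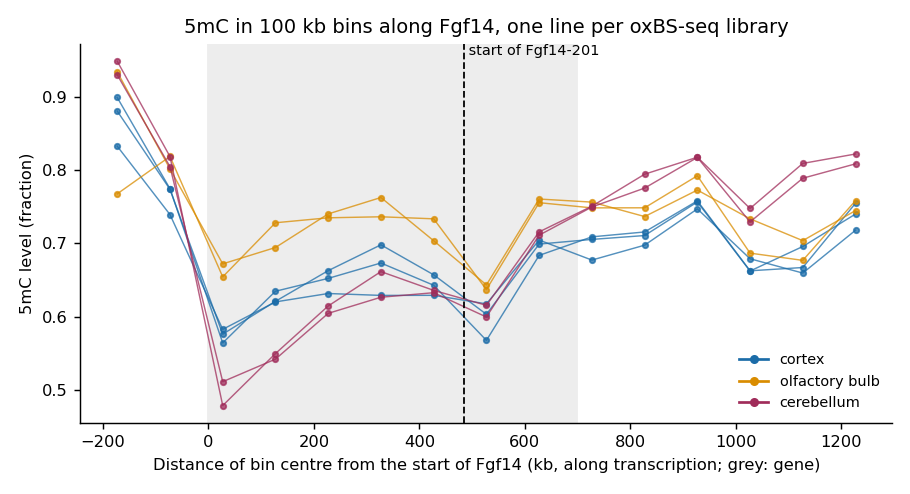
5mC level (fraction, y axis) in 100 kb bins along Fgf14 and its flanks, by distance of the bin centre from the start of the gene along transcription (kb, x axis), with a line per oxBS-seq library and the gene in grey. The cerebellum lines are the lowest near the start, at 0.478 and 0.511, and meet those of olfactory bulb at the 3′ end, while the dashed line marks the start of the shorter transcript.

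The gene was also taken in 2 pieces at the inner start, a division made after the values had been seen. In the 3 bins that overlap the shorter transcript, 5mC was 0.663 ± 0.00849 (n = 3) in cortex, 0.717 ± 0.00454 (n = 2) in olfactory bulb and 0.691 ± 0.00507 (n = 2) in cerebellum. In the 5 bins upstream of it, 5mC was 0.632 ± 0.0124, 0.716 ± 0.00205 and 0.585 ± 0.00329. Cerebellum minus cortex was 0.0275 in the former and -0.0461 in the latter, and in both the libraries did not overlap. Over the whole gene the means were 0.643 ± 0.00849, 0.717 ± 0.000424 and 0.625 ± 0.00396, so a single value hides the change of sign in these levels. Relative to library medians the sign did not change, and the mean ratio was lower in cerebellum than in cortex in every bin. It was 0.9969 ± 0.0135 against 1.001 ± 0.00353 in the 3′ bin and 0.6568 ± 0.0403 against 0.8245 ± 0.0301 in the 5′ bin. With library medians subtracted, cerebellum minus cortex over the gene was -0.0749.

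The lowest bin of Fgf14 was the 5′ bin in cortex (0.574) and in cerebellum (0.494), and in olfactory bulb it was the bin of the inner start, chr14:124100001-124200000, at 0.640. The highest was the 3′ bin in cortex (0.697) and cerebellum (0.751), and its neighbour in olfactory bulb (0.758). Against its flanks, of which only 2 bins lie upstream before the chromosome ends, Fgf14 was lower in 5mC in every library. The mean of gene minus flanks was -0.0962 ± 0.00952 in cortex, -0.0464 ± 0.0176 in the olfactory bulb and -0.191 ± 0.00654 in cerebellum. The outer upstream bin holds only 24 CpG sites, and 1 olfactory bulb library was at 0.768 there against 0.9351 in the other.

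Taking 5mC and 5hmC together over chr14:124000001-125000000, their sum was 0.853 ± 0.0202 in cortex, 0.903 ± 0.0130 in the olfactory bulb and 0.911 ± 0.00819 in cerebellum. In that sum 5hmC made up 20.7% in cortex, 18.3% in the olfactory bulb and 26.8% in cerebellum. The medians over all bins were 20.5%, 17.7% and 11.1%. The cerebellar share ranked 7 of 2581, whereas the shares of cortex and olfactory bulb ranked 1245 and 1166. The 5mC part of the sum is an unweighted mean of 9 bins of 100 kb. It includes the outer upstream bin with only 24 CpG sites, whose 5mC was 0.9404 for cerebellum, against 0.8716 for cortex and 0.8515 for olfactory bulb. Sums and shares were not computed without that bin, so no order of cerebellum and olfactory bulb is read from the sum.

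Fgf12 (ENSMUSG00000022523.10), 593 kb on the minus strand at chr16:28160098-28753068, encodes a homologous factor expressed in brain and heart. Its transcripts begin at 3 places, with Fgf12-205 at the outer end, Fgf12-202 188.1 kb further in and Fgf12-201 306.8 kb in. In the bin of the innermost start, chr16:28400001-28500000, 5mC was 0.5361, 0.5516 and 0.5314 in cortex, 0.476 and 0.4864 in olfactory bulb and 0.5602 and 0.5466 in cerebellum. This was the lowest bin of the gene in every tissue, and olfactory bulb was below the other tissues, which overlapped.

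On either side of that bin the order of cortex and olfactory bulb was opposite. In the bin upstream, chr16:28500001-28600000, 5mC was 0.5745, 0.5733 and 0.5939 in cortex, 0.679 and 0.648 in olfactory bulb and 0.711 and 0.6945 in cerebellum. In the bin downstream, chr16:28300001-28400000, it was 0.6247, 0.6433 and 0.5996 in cortex, 0.5637 and 0.5462 in olfactory bulb and 0.7245 and 0.7167 in cerebellum. Olfactory bulb was thus above every cortex library upstream of the inner start and below every cortex library downstream of it, while cerebellum was highest in both.

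The other bins followed the same division, which was likewise made after the values had been seen. In the 4 bins that overlap Fgf12-201, 5mC was 0.627 ± 0.0185 (n = 3) in cortex, 0.550 ± 0.00853 (n = 2) in olfactory bulb and 0.696 ± 0.00497 (n = 2) in cerebellum. All 4 were called lower in olfactory bulb than in cortex (2.18% of all bins). In the 3 bins upstream 5mC was 0.616 ± 0.00643, 0.700 ± 0.0127 and 0.711 ± 0.0162, and all 3 were called higher (37.6%). Olfactory bulb minus cortex was -0.0772 in the inner piece and 0.0839 in the outer. Because the division followed the values, the calls are no test of it. Cerebellum minus cortex was positive in all 7 bins and was called higher in 6 (71.9% of all bins). The bin of the inner start was the exception, at 0.0137 with overlapping libraries.

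**Figure D3:**
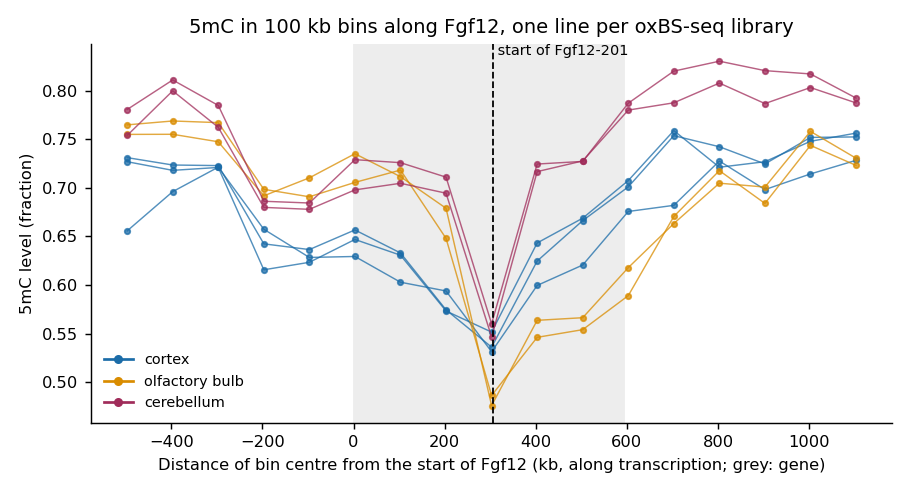
5mC level (fraction, y axis) in 100 kb bins along Fgf12 and its flanks, by distance of the bin centre from the start of the gene along transcription (kb, x axis), with a line per oxBS-seq library and the gene in grey. The olfactory bulb lines lie above those of cortex up to the bin at 203.1 kb. They lie below them from the bin at 303.1 kb to the end of the gene. The dashed line marks the start of Fgf12-201, which lies inside the bin at 303.1 kb, just past its centre. In the downstream flank the lines of these tissues overlap from the bin at 903.1 kb on.

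Averaged over the whole gene, these opposite differences nearly cancelled in the levels as given, to -0.00817 for olfactory bulb minus cortex. With library medians subtracted that difference was -0.04025. Fgf12 had 5mC of 0.622 ± 0.0129 in cortex, 0.614 ± 0.0103 in the olfactory bulb and 0.702 ± 0.00979 in cerebellum, and cortex and olfactory bulb overlapped. The gene was lower than its flanks in every library, by a mean of -0.0846 ± 0.00550 in cortex, -0.108 ± 0.0112 in the olfactory bulb and -0.0713 ± 0.00303 in cerebellum. Just past the 3′ end, in chr16:28000001-28100000, olfactory bulb was also lower than cortex, at 0.667 ± 0.00515 against 0.732 ± 0.0430, so the lower 5mC reached beyond the gene. The highest bin of Fgf12 was its 3′ bin in cortex (0.695) and cerebellum (0.784) and its 5′ bin in olfactory bulb (0.720).

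The 5hmC of Fgf12 was read in a single bin, chr16:28000001-29000000, of which the gene covers 593 kb. The libraries had 0.2104, 0.2303 and 0.2055 in cortex, 0.2161, 0.2188 and 0.207 in olfactory bulb and 0.1907, 0.1787 and 0.1861 in cerebellum. Cortex and olfactory bulb overlapped and cerebellum was below both, with a difference of -0.0302 from cortex where the median bin had -0.0708. Relative to the library median the bin was at 1.23 ± 0.0135 in cortex, 1.41 ± 0.0380 in the olfactory bulb and 1.99 ± 0.0716 in cerebellum. By level it ranked 179 from the top in cortex, 129 in the olfactory bulb and 62 in cerebellum, so it was high in every tissue. The bins below and above it had a cerebellar mean of 0.0661 and 0.103. With library medians subtracted, the sign of its cerebellum minus cortex difference turned, to 0.0513, and that of cerebellum minus olfactory bulb to 0.0299.

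Fgf11 (ENSMUSG00000042826.13) is the short relative, 5.79 kb on the minus strand at chr11:69796068-69801857, in a region with many genes and CpG sites. It lies across the border of 2 bins and covers 3.933 and 1.857 kb of them, so its levels are those of the neighbourhood. The mean of the bins was 0.5284, 0.5796 and 0.5177 in cortex, 0.5743 and 0.5748 in olfactory bulb and 0.5535 and 0.5695 in cerebellum, and every pair of tissues overlapped except cerebellum and olfactory bulb, which differed by -0.0130. In 5mC 0 of its bins were called in any comparison by limma, and 0 at an unadjusted p under 0.05. In 5hmC its bin had 0.145 ± 0.00702 in cortex, 0.127 ± 0.00577 in the olfactory bulb and 0.0998 ± 0.00442 in cerebellum, without overlap, and its ratio to the library median was between 0.832 and 1.07. With library medians subtracted the signs turned, to 0.00444 for olfactory bulb minus cortex, 0.0361 for cerebellum minus cortex and 0.0317 for cerebellum minus olfactory bulb.

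Among the channel genes, Scn3a, Scn2a and Scn1a lie side by side on chromosome 2. Scn3a (ENSMUSG00000057182.14, chr2:65457118-65567627, minus strand) and Scn2a (ENSMUSG00000075318.12, chr2:65620771-65767447, plus strand) are transcribed away from each other, and Scn1a (ENSMUSG00000064329.13, chr2:66270778-66440840, minus strand) follows further along. The bin at the 5′ end of Scn2a, chr2:65600001-65700000, holds both of its starts. In this bin 5mC was 0.5592, 0.5794 and 0.5377 in cortex, 0.6616 and 0.636 in olfactory bulb and 0.4587 and 0.4414 in cerebellum. The tissues did not overlap, with cerebellum lowest and olfactory bulb highest.

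The differences of that bin were large for the table as a whole. Cerebellum minus cortex was -0.109, rank 152 from the lowest of 25664 bins, and cerebellum minus olfactory bulb was -0.199, rank 67. Relative to the library median the bin was at 0.802 ± 0.0163 in cortex, 0.891 ± 0.0230 in the olfactory bulb and 0.598 ± 0.00755 in cerebellum. The other bin of Scn2a, chr2:65700001-65800000, had 0.693 ± 0.00847, 0.748 ± 0.0123 and 0.735 ± 0.00411, and there cerebellum was above cortex in level. Relative to the library median it was not, at 0.976 ± 0.00876 against 0.995 ± 0.0176 in cortex. Nav1.2, the product of Scn2a, is the channel of unmyelinated axons, among them those of cerebellar granule cells.

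The gene beside it showed the opposite. Scn3a, whose channel is mostly embryonic, had 5mC of 0.6855, 0.6805 and 0.6546 in cortex, 0.6562 and 0.6523 in olfactory bulb and 0.8082 and 0.7933 in cerebellum. Cerebellum lay above all other libraries, and cortex and olfactory bulb overlapped. The cerebellum minus cortex difference of 0.127 was the largest of the 7 genes, and with library medians subtracted it was 0.0708. Both bins of the gene were called higher, as were 71.9% of all bins. The flanks of Scn3a rose as well, by 0.142, so the rise was not particular to the gene. The step from the 5′ bin of Scn3a, chr2:65500001-65600000, to the 5′ bin of Scn2a next to it was from 0.814 ± 0.0181 to 0.450 ± 0.0122 in cerebellum, from 0.667 ± 0.0297 to 0.559 ± 0.0208 in cortex and from 0.656 ± 0.00659 to 0.649 ± 0.0181 in olfactory bulb. The step was thus steep in cerebellum and within the spread of the libraries in olfactory bulb.

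Scn1a, in which loss of function causes Dravet syndrome, differed less. Its 3 bins had a mean 5mC of 0.6901, 0.6859 and 0.6621 in cortex, 0.7284 and 0.7244 in olfactory bulb and 0.7572 and 0.747 in cerebellum, in that order and without overlap. Its lowest bin was the 5′ bin, chr2:66400001-66500000, in every tissue, at 0.629, 0.684 and 0.706. The highest bin was the 3′ bin in cortex (0.715) and cerebellum (0.787) and the middle bin in olfactory bulb (0.757). Cerebellum minus cortex was 0.0727, 0.0685 and 0.0769 from 3′ to 5′, and all 3 bins were called higher (71.9% of all bins). Subtracting library medians took the difference over the gene from 0.0727 to 0.0163.

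**Figure D4:**
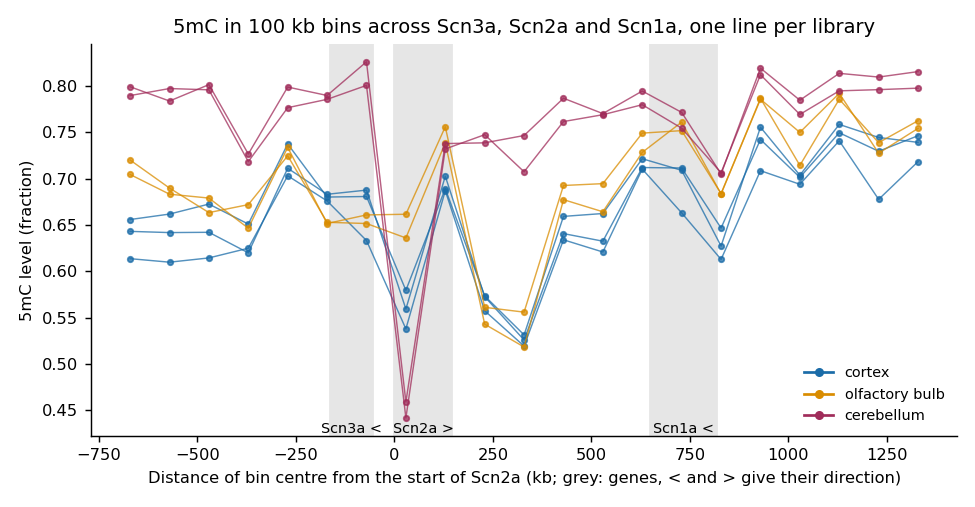
5mC level (fraction, y axis) in 100 kb bins across Scn3a, Scn2a and Scn1a with their flanks, by distance of the bin centre from the start of Scn2a (kb, x axis), with a line per oxBS-seq library and the genes in grey. Cerebellum drops to 0.459 and 0.441 at the start of Scn2a, the only bin of the region in which it is lowest.

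Compared with their flanks, the tissue means of Scn2a and Scn1a differed in sign, and those of Scn3a were all above 0, in olfactory bulb by less than the SD. Scn2a minus its flanks was 0.00181 ± 0.00850 in cortex, 0.0534 ± 0.00500 in the olfactory bulb and -0.168 ± 0.00121 in cerebellum. Scn1a minus its flanks was 0.0112 ± 0.00705, 0.0317 ± 0.00684 and -0.0281 ± 0.00298, and Scn3a minus its flanks 0.0479 ± 0.0118, 0.000159 ± 0.00147 and 0.0333 ± 0.00279. The genes share flank bins. In the pair of bins past the 3′ end of Scn2a, cerebellum was at 0.743 ± 0.00625 and 0.727 ± 0.0278. Cortex was lower there, at 0.568 ± 0.00903 and 0.525 ± 0.00605. Olfactory bulb was also lower, at 0.552 ± 0.0129 and 0.537 ± 0.0267. Relative to the library median, cerebellum was at 0.9873 and 0.9655, cortex at 0.8151 and 0.7544 and olfactory bulb at 0.7575 and 0.7369. The low values in this pair were thus those of cortex and olfactory bulb. The upstream flank alone gave -0.0481 in cortex and -0.0335 in olfactory bulb for Scn1a, so its positive values rest on the flank towards Scn2a, and with flanks of 200 kb the cortex value was -0.000262.

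The 5hmC of Scn2a and Scn3a was read in 1 shared bin, chr2:65000001-66000000, and cannot be divided between them. It was 0.2039, 0.2208 and 0.2026 in cortex, 0.2177, 0.2187 and 0.2081 in olfactory bulb and 0.12, 0.1227 and 0.1238 in cerebellum. Cortex and olfactory bulb overlapped and cerebellum was below both, with differences of -0.0870 from cortex and -0.0927 from olfactory bulb, of which the latter ranked 189 from the lowest of 2581. After subtraction of library medians they were -0.00542 and -0.0340, and the ratio to the library median was 1.20 in cortex, 1.42 in the olfactory bulb and 1.31 in cerebellum. The bin of Scn1a had 0.168 ± 0.00965, 0.145 ± 0.00312 and 0.0841 ± 0.00182 and was near or below the library medians, with ratios of 0.962, 0.954 and 0.904. Over these bins the 5hmC share of the sum was 24.9%, 24.7% and 14.2% for Scn2a and Scn3a and 19.5%, 16.5% and 9.73% for Scn1a, in cortex, olfactory bulb and cerebellum.

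Scn8a (ENSMUSG00000023033.14) lies on the plus strand at chr15:100869858-101045938 and encodes Nav1.6, the main channel of the mature axon initial segment and of the nodes of Ranvier. Its middle bin, chr15:100900001-101000000, is wholly inside the gene and holds the inner start. In this bin 5mC was 0.5539, 0.5492 and 0.5434 in cortex, 0.6282 and 0.6867 in olfactory bulb and 0.5786 and 0.5554 in cerebellum. The libraries of the tissues did not overlap, with cortex lowest and olfactory bulb highest, though cortex and cerebellum were separated by only 0.0182 in their means. Olfactory bulb minus cortex was 0.109, and the pair of olfactory bulb libraries themselves differed widely, with an SD of 0.0414.

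Over its 3 bins Scn8a had 5mC of 0.559 ± 0.00289 in cortex, 0.633 ± 0.0140 in the olfactory bulb and 0.607 ± 0.00952 in cerebellum, without overlap. With library medians subtracted, its cerebellum minus cortex difference turned from 0.0481 to -0.00837. The highest bin was the 5′ bin in cortex (0.581), the middle bin in olfactory bulb (0.657) and the 3′ bin in cerebellum (0.628). The lowest was the 3′ bin in cortex (0.547) and olfactory bulb (0.620) and the middle bin in cerebellum (0.567). Several of these positions were near ties and are not resolved. The middle bin was at 0.549 in cortex, and the 5′ bin at 0.621 in olfactory bulb and 0.626 in cerebellum. Gene minus flanks was -0.0475 ± 0.00779 in cortex, -0.00825 ± 0.0193 in the olfactory bulb and -0.0542 ± 0.00281 in cerebellum, but with flanks of 200 kb the values of cortex and cerebellum became 0.0186 and 0.00228.

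The 5hmC of Scn8a was read in 2 bins, of which chr15:100000001-101000000 holds 130.1 kb of the gene. There the libraries had 0.1997, 0.2203 and 0.1946 in cortex, 0.1747, 0.1843 and 0.1787 in olfactory bulb and 0.1693, 0.1729 and 0.1763 in cerebellum. Cortex was above the others, which overlapped, and this was the only member bin in which cerebellum and olfactory bulb were not called apart. Relative to the library median it was at 1.17 ± 0.0153, 1.18 ± 0.0129 and 1.86 ± 0.0223. By level it ranked 378 from the top in cortex, 642 in the olfactory bulb and 117 in cerebellum. The next bin, with 45.94 kb of the gene, had ratios of 0.996, 1.04 and 1.15. With library medians subtracted, the mean of both bins no longer fell but differed by 0.00216 for olfactory bulb minus cortex, 0.0322 for cerebellum minus cortex and 0.0301 for cerebellum minus olfactory bulb.

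**Figure D5:**
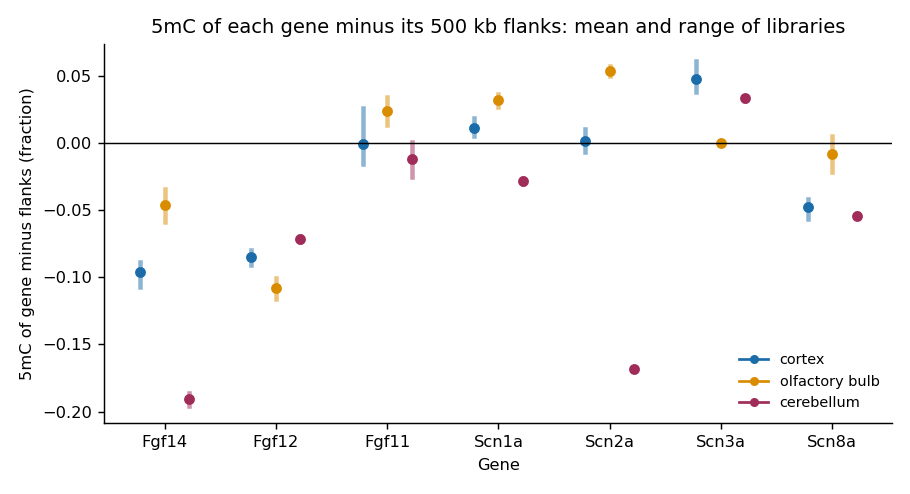
5mC of each gene minus the mean of its 500 kb flanks (fraction, y axis) by gene (x axis); points are tissue means and bars span the oxBS-seq libraries of a tissue. The cerebellum values of Fgf14 and Scn2a, at -0.191 and -0.168, are the lowest, and Scn2a is above 0 in both olfactory bulb libraries.

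Ordered by mean 5mC, the 7 genes stood differently in each tissue. In cortex the order was Fgf11, Scn8a, Fgf12, Scn2a, Fgf14, Scn3a and Scn1a, from 0.542 to 0.679. The ranges of Fgf11 and Scn8a, of Fgf12 and Scn2a, and of Scn3a and Scn1a overlapped there. Within each cortex library, however, Scn2a was above Fgf12 and Scn1a above Scn3a. Only Fgf11 and Scn8a changed order, in cortex replicate 2, at 0.5796 and 0.5607. In olfactory bulb it was Fgf11, Fgf12, Scn8a, Scn3a, Scn2a, Fgf14 and Scn1a, from 0.575 to 0.726, and no neighbours overlapped. In cerebellum it was Fgf11, Scn2a, Scn8a, Fgf14, Fgf12, Scn1a and Scn3a, from 0.562 to 0.801, again without overlap between neighbours. Fgf11 was lowest throughout, and Scn3a moved from the middle of the order in olfactory bulb to the top in cerebellum. The member bins ranged from 3.29 to 20.7 CpG sites per kb around a median of 6.88 where that of all bins was 7.53, and the part of CpG content in these levels was not tested.

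Genes with a 5mC pattern most like those of the members were sought among 2355 protein-coding genes of at least 100 kb, by the Euclidean distance between the mean levels in the 7 oxBS-seq libraries. Nearest to Fgf14 were Mcf2l (distance 0.0264), Megf11 (0.0389) and Sgpp2 (0.0392), where the median gene was at 0.197. Nearest to Fgf12 were Kif13b (0.0172), Ubr3 (0.0177) and Sdk2 (0.0198), against a median of 0.161. Nearest to Scn2a were Car10 (0.0272), Fntb (0.0302) and Fut8 (0.0383), against 0.224.

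The related genes were 15 others: Fgf13, the remaining sodium channel alpha and beta subunits, and Ank3, Sptbn4, Nfasc and Nrcam of the axon initial segment. In the 35 bins of 100 kb they cover outside the members, 5mC in olfactory bulb against cortex was called higher in 8 (37.6% of all bins) and lower in 0 (2.18%). For cerebellum against cortex it was higher in 21 (71.9%) and lower in 2 (4.44%). For cerebellum against olfactory bulb it was higher in 9 (35.3%) and lower in 3 (7.69%). Their median differences were 0.0282, 0.0536 and 0.0194, where those of all bins were 0.0307, 0.0585 and 0.0248. In their 11 bins of 1 Mb, 5hmC was called lower in 4, 11 and 9 in the same comparisons (67.7%, 97.6% and 91.8% of all bins). It was called higher in 0 (3.25%, 0.426% and 1.2%). Each of these counts of 0 was also 0 at an unadjusted p under 0.05 (limma).

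The largest rise from cortex to cerebellum among the related genes was in Scn3b, a beta subunit, at 0.6067, 0.6202 and 0.6103 in cortex, 0.6417 and 0.6199 in olfactory bulb and 0.7192 and 0.7067 in cerebellum, a difference of 0.101. Fgf13, the homologous factor on chromosome X, was at 0.680 ± 0.0184 in cortex, 0.687 ± 0.000344 in the olfactory bulb and 0.698 ± 0.0101 in cerebellum over 6 bins, and all tissues overlapped with cortex. Scn9a, the Nav1.7 gene next to Scn1a, was at 0.688 ± 0.0141, 0.734 ± 0.00832 and 0.766 ± 0.00498, in the same order of tissues as Scn1a, with which it shares a bin.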

How the data were processed

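OxBS-seq and TAB-seq libraries of 3 brain tissues were compared, and 6 RNA-seq samples were not analysed here. Paired reads had been aligned by the authors to mm10 with Bismark (unique hits only) and CpG sites tested against a binomial distribution. The deposited tables list a modification level per genomic bin and library, as a fraction between 0 and 1. How reads or sites were combined into a bin is not given in the sources used here, and a mean over few CpG sites or a site class would change the level. Bins listed at 0 or 1 in any library were left out, which kept 25664 bins of 5mC and 2581 of 5hmC. Gene levels were unweighted means over overlapping bins, placed by GENCODE release M 21. Flanks were the bins within 500 kb that overlap no member. Sums of 5mC and 5hmC used the mean of the 100 kb bins in each 1 Mb bin.

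Per-bin tests were made with limma (version 3.58.1, R 4.3.3) on the log2 odds of the level, in 1 fit over the 3 tissues per assay with Benjamini-Hochberg adjustment over all bins. The script was tested on simulated data. For 5hmC limma gave all bins the same spread, and for 5mC nearly so, so a call does not reflect the spread of its own bin. An exact permutation test of a single level cannot go below 0.1 with 3 libraries against 3 or 2, or 0.333 with 2 against 2, and none was made. Libraries were grouped by their labels, and no 2 libraries held identical values. Members and lists were chosen with earlier results of these data known. All members are named. Of the related genes, that with the largest 5mC rise from cortex to cerebellum is named, with Fgf13 and Scn9a. The gene at the other end of that range and the genes most like Scn8a are not reported here. Alternatives were the fraction scale, subtraction of library medians, no filter (levels limited to 0.001 to 0.999), trend and robust options, autosomes, the replicate number as a block, bins wholly inside a gene, weighting by overlap, the median over bins, other flanks, and leaving out each library. Python 3.11.15 with pandas 2.3.3 and matplotlib 3.10.9 did the rest. Sequencing batches are not given in the sources used here.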

Additional observations from a re-analysis of the deposited data

Results flagged for a closer look

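The difference between a gene and its flanks had opposite signs in every library of 2 tissues in 3 cases, and none of these differences between tissues was tested. Scn2a minus its flanks was -0.168 in cerebellum and 0.0534 in olfactory bulb, which differ by -0.221. Scn1a minus its flanks was -0.0281 in cerebellum, against 0.0112 in cortex and 0.0317 in olfactory bulb, which differ by -0.0393 and -0.0598. Against the upstream flank alone, Scn2a was at -0.177 ± 0.000311 in cerebellum and 0.0115 ± 0.0154 in olfactory bulb. The olfactory bulb libraries were at 0.000676 and 0.0224 there, so that sign is not resolved. For Scn1a the upstream flank alone gave -0.0481 in cortex and -0.0335 in olfactory bulb.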

How the results depend on the processing

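Subtracting library medians changed most counts of called bins: to 10 for 5mC higher in olfactory bulb than in cortex, to 6 higher and 11 lower for cerebellum against cortex, and for 5hmC to 5 higher and 0 lower, 7 higher and 1 lower, and 5 higher and 2 lower for olfactory bulb against cortex, cerebellum against cortex and cerebellum against olfactory bulb. Keeping only bins wholly inside a gene gave 9 higher for olfactory bulb against cortex, 5 higher and 2 lower for cerebellum against cortex and 3 higher for cerebellum against olfactory bulb. There are fewer such bins, 6 in Fgf14, 5 in Fgf12, 1 in Scn1a and 1 in Scn8a. These counts are thus not to be set directly against those of the 27 bins. Leaving out 1 library gave between 9 (without olfactory bulb replicate 1) and 17 bins with higher 5mC in olfactory bulb than in cortex, and between 2 (without olfactory bulb replicate 2) and 4 with lower. With an arm of 1 library, that library is assumed to vary like the other groups. The fraction scale, no filter, the trend and robust options and autosomes alone kept all counts of member bins within 1.5 times. With no filter the count over all bins of higher 5mC in olfactory bulb than in cortex went from 9637 to 5674.

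Among genes whose libraries did not overlap between tissues, differences turned sign under subtraction of library medians for 5mC of Scn8a (cerebellum minus cortex, -0.00837) and for 5hmC of Fgf12 (0.0513 against cortex and 0.0299 against olfactory bulb in cerebellum), Fgf11 (0.00444 for olfactory bulb minus cortex, 0.0361 and 0.0317 for cerebellum) and Scn8a (0.00216, and 0.0322 and 0.0301). Among overlapping tissues it also turned for 5mC of Fgf11 (cerebellum minus cortex, -0.0368) and for 5hmC of Fgf14 (0.0151 for olfactory bulb and 0.0815 for cerebellum, minus cortex) and Fgf12 (olfactory bulb minus cortex, 0.0214). Weighting the bins of Fgf14 by overlap gave 0.0629 for cerebellum minus cortex in 5hmC, where the plain mean of both bins was -0.000106. Against other flanks, where all libraries of a tissue had 1 sign, that sign turned for Fgf11 in olfactory bulb (upstream alone, -0.0103), Scn1a in cortex (-0.000262 with 200 kb, -0.0481 upstream alone) and olfactory bulb (-0.0335 upstream alone), Scn3a in cortex (-0.00114 with 200 kb) and Scn8a in cortex and cerebellum (0.0186 and 0.00228 with 200 kb). Where the libraries of a tissue had both signs, the mean turned for Fgf11 in cortex (0.0789 with 200 kb, 0.0217 downstream alone) and cerebellum (0.0619 with 200 kb), Scn2a in cortex (-0.0382 upstream alone), Scn3a in olfactory bulb (-0.0401 with 200 kb, -0.0375 downstream alone) and Scn8a in olfactory bulb (0.0547 with 200 kb, 0.0164 for the bin wholly inside). The causes were not tested. Leaving out 1 library turned the sign only of values whose libraries overlapped or had both signs, such as Scn8a minus its flanks in olfactory bulb (from -0.00825 to 0.00541 without replicate 1). Fgf11, cerebellum minus olfactory bulb in 5mC, went from -0.0130 to -0.00504 without cerebellum replicate 1.

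Replicate numbers are shared between tissues, but correlations of same-numbered libraries' deviations from their tissue means were between -0.191 and 0.429 for 5hmC, over 0.1 in 3 of 9 pairs, and between -0.0932 and 0.0290 for 5mC, over 0.1 in 0 of 6, so the numbers were not taken to pair the samples. These are the numbers of the labels, and for oxBS-seq of olfactory bulb and cerebellum the deposited library names carry other numbers. With the replicate block, the 5mC counts were 17 higher and 4 lower, 15 higher and 5 lower, and 8 higher and 8 lower in the 3 comparisons, and the 5hmC counts were 0 and 4, 1 and 7, and 1 and 6. The depth behind each level is unknown, so differences of a few thousandths cannot be judged.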
